A study of Mus musculus with 2 samples.

Results

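The cytochrome P450 family 2 genes of the mouse were examined for their position relative to chromosome boundaries in olfactory neurons. Members were the protein-coding genes of GENCODE release M21 (build GRCm38) whose symbol is Cyp2 followed by subfamily letters and a number. This gave 49 of 21755 such genes on the 20 chromosomes with listed boundaries. The symbol alone decided membership. Cyp2ab1 was the only member with more than 1 subfamily letter.

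The data came from in situ Hi-C, which cuts and religates DNA inside fixed nuclei so that sequences lying close together are joined and can be counted. Mature olfactory sensory neurons (mOSNs) were obtained by FACS from olfactory epithelium. The mice were adults, with sex given as mixed and strain not specified. In all of them Ldb1, which links DNA-bound transcription factors to one another, had been conditionally knocked out by OMP-Cre, a recombinase under the promoter of a gene switched on as these neurons mature. There was 1 group of 2 biological replicates, each of 1000000 cells fixed in 1% formaldehyde, and no control neurons were analysed here. Boundaries were called by the authors on the pooled contacts of both replicates, so the values below carry no replicate error and no test between samples could be made. A boundary list shows neither whether Ldb1 was lost nor which cell types the sort held, so the label could not be checked against marker genes.

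P450 enzymes of family 2 are haem proteins of the endoplasmic reticulum that oxidise drugs, odorants, steroids and fatty acids with electrons passed on by a reductase, Por. Most members are known from liver, and some, such as Cyp2g1 and Cyp2a5, from the supporting and gland cells of the olfactory epithelium, where they are thought to clear inhaled chemicals. The genes arose largely by tandem duplication and lie in gene clusters. A boundary is a place that few contacts cross, so it separates neighbouring stretches of chromosome. It is given as a bin of 5 kb with a strength (the authors' score) and a class, strong at 0.5 or more and weak below that.

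The boundaries of the Cyp2 clusters differed in the sequence they carried. The consensus of CTCF, the protein that stops loop extrusion, was searched by its 12-letter sequence on both strands. It lay within 10 kb of 24.4% of all 7610 boundary bins (1859) and of 5 of the 12 bins that lay inside a Cyp2 cluster or nearest to its edge. In the bin itself it lay in 1 of the 12, against 6.29% of all bins. The 6 matches at these 5 bins are shown 5′ to 3′ on the strand of the match, with the consensus in capitals and 15 bases of GRCm38 on either side. They are shown because they are the only consensus matches at the edges and internal boundaries of the clusters.
Cyp2j7 and Cyp2j11, chr4:96274130-96274171, plus strand: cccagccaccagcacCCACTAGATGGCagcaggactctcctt
Cyp2j5 edge, chr4:96687617-96687658, plus strand: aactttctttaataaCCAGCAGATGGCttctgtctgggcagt
Cyp2f2, chr7:27132741-27132782, plus strand: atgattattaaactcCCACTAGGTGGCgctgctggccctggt
Cyp2c55 edge, chr19:38982149-38982190, plus strand: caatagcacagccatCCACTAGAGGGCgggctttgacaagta
Cyp2c70 edge, chr19:40225602-40225643, minus strand: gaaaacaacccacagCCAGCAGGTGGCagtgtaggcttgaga
Cyp2c70 edge, chr19:40232857-40232898, minus strand: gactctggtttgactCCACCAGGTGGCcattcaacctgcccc
At the Cyp2c cluster the match at the low-coordinate edge was on the plus strand and both at the high-coordinate edge were on the minus strand. The matches at opposite edges thus faced each other across the cluster. Inside it lay 2 further matches, more than 10 kb from a boundary and also on the minus strand. Both matches shown for the Cyp2j cluster were on the plus strand. The strong boundaries between Cyp2b23 and Cyp2b19 (strength 1.97) and beside Cyp2d26 (1.86) had no consensus within 10 kb. A match is a sequence and not a measurement of binding.

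The 49 genes formed 5 clusters with 43 members and 6 single loci. A cluster was a run of at least 3 members with at most 200 kb between neighbours. The clusters covered 3.25 Mb together and also held 18 annotated Cyp2 pseudogenes. The only other protein-coding gene with a start site inside a cluster was Vmn1r184, a vomeronasal receptor gene. The 8 boundaries inside the clusters amounted to 2.46 per Mb (exact 95% Poisson interval 1.06 to 4.86), while the genome had 2.89 per Mb. Of these 8 boundaries 4 were strong, and of all boundaries 52.9% were strong (4022).

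**Figure D1:**
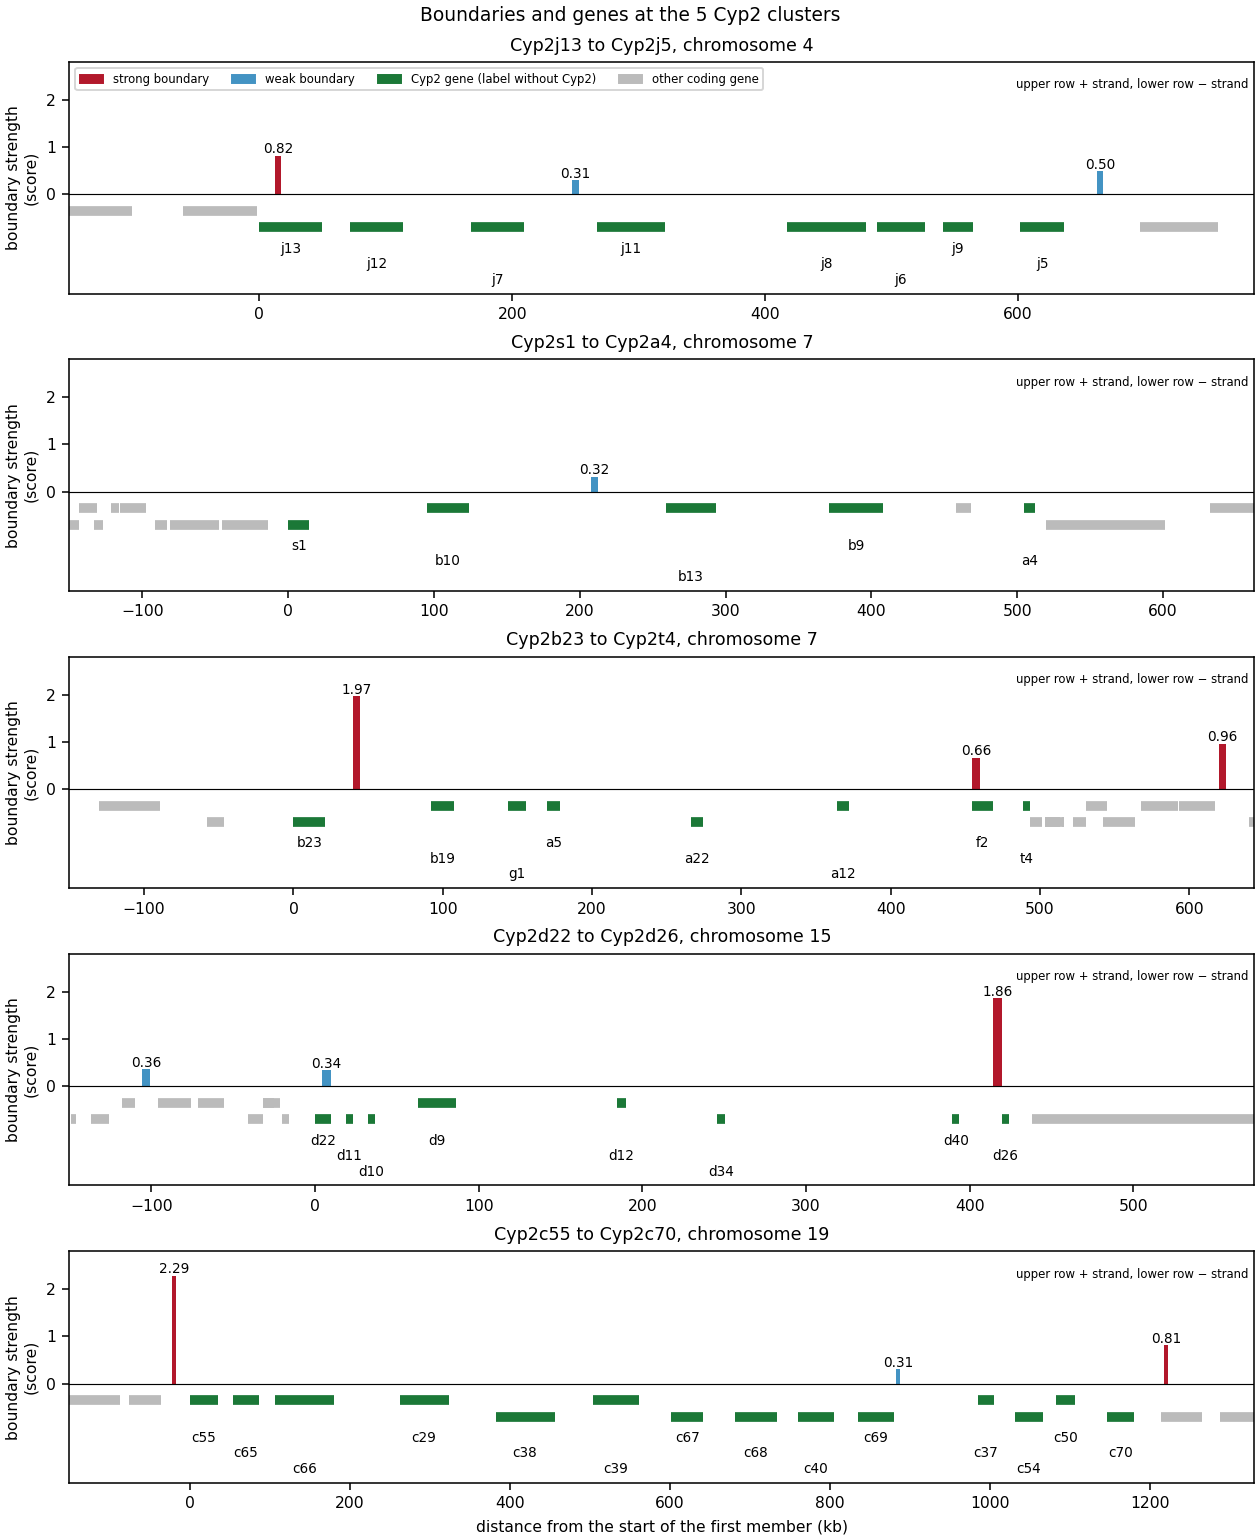
Genes and boundaries at the 5 Cyp2 clusters, with distance in kb from the start of the first member on the horizontal axis and boundary strength as bar height (red strong, blue weak). Green bars are Cyp2 genes and grey bars other coding genes. The tallest bars stand at 1 end of the Cyp2c, Cyp2d and Cyp2b23 to Cyp2t4 clusters, with strengths of 2.29, 1.86 and 1.97.

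Boundaries lay close to most cluster edges. Of the 10 edges, 8 had a boundary within 50 kb, and the 2 without one were both edges of the Cyp2s1 to Cyp2a4 cluster. The nearest boundary lay inside the cluster at 6 edges and outside it at 4. Within 25 kb there was a boundary at 4 edges. No share of edges expected by placement was computed, so these counts are descriptions of the 5 clusters. Of all coding start sites, 45.3% lay within 50 kb of a boundary and 26.5% within 25 kb, but an edge is not always a start site.

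The Cyp2c cluster on chromosome 19 was the longest and was bounded at both ends by strong boundaries. It holds 14 genes in 1180 kb (39007019 to 40187333), among them Cyp2c29 and Cyp2c70. The former is a liver epoxygenase, and the latter makes the muricholic acids of mouse bile. The boundary before the cluster (38985001 to 38990000) had a strength of 2.29, lay 17.0 kb from Cyp2c55 and was stronger than 98.7% of all boundaries in the list. The boundary after it (40225001 to 40230000) had a strength of 0.814, lay 37.7 kb beyond Cyp2c70 and fell in an intron of Pdlim1, which encodes a cytoskeletal adaptor.

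Between these edges the cluster held 1 boundary, a weak one (39890001 to 39895000, strength 0.307) outside coding genes. It lay 3.20 kb upstream of Cyp2c69 and parted 10 genes, from Cyp2c55 to Cyp2c69, from the last 4, Cyp2c37 to Cyp2c70. The stretch of 10 genes was 900 kb long with no other coding gene, and 96.8% of the 7590 intervals of the genome were shorter. The 2 members farthest from any boundary lay in its middle, Cyp2c38 at 427 kb from the nearest one and Cyp2c39 at 379 kb. Cyp2c29 was 279 kb away, or 297 kb from the start that RefSeq gives, which is 17.7 kb from the GENCODE start. Cyp2c67 lay 241 kb and Cyp2c68 149 kb from the weak internal boundary. Nearer the strong first edge, Cyp2c65 lay 71.0 kb and Cyp2c66 124 kb from it, and Cyp2c40 lay 77.2 kb from the weak boundary. In the interval after that boundary Cyp2c37 was 97.4 kb from it, whereas Cyp2c54, at 151 kb, and Cyp2c50, at 135 kb, were nearest to the closing boundary of 0.814. Cyp2c54 and Cyp2c50 thus lay deepest in that interval. Over the cluster the median distance was 130 kb, and 8 of 14 genes lay more than 100 kb from a boundary.

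The Cyp2 genes of proximal chromosome 7 include those best known from the olfactory epithelium, and a strong boundary stood between 2 groups of them. With gaps of up to 200 kb they formed 2 clusters, Cyp2s1 to Cyp2a4 (25802475 to 26315088, 5 genes) and Cyp2b23 to Cyp2t4 (26665227 to 27158668, 8 genes). With gaps of up to 500 kb they formed 1. The sequence between the 2 clusters holds Nlrp9c, Nlrp4a and Nlrp9a, genes of the NLRP family known from oocytes, and the vomeronasal receptor gene Vmn1r185. The boundary between Cyp2b23 and Cyp2b19 (26705001 to 26710000) had a strength of 1.97 and was stronger than 97.1% of the list. Soft-masked repeats made up 84.4% of its bases. Cyp2b23 began 18.6 kb before it and Cyp2b19, known from keratinocytes of the skin, 47.1 kb after it.

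On the high-coordinate side of this boundary a 410 kb interval held Cyp2b19, Cyp2g1, Cyp2a5, Cyp2a22, Cyp2a12 and Cyp2f2 and no other coding gene. Cyp2g1, an enzyme long known as specific to olfactory mucosa, lay 98.9 kb from the boundary of 1.97, and Cyp2a5, the coumarin hydroxylase of liver and nasal mucosa, 125 kb from it. Cyp2a22 was the farthest of the cluster, at 181 kb from its nearest boundary, and Cyp2a12 lay 90.9 kb from the next one. The interval ended at Cyp2f2, which activates naphthalene in airway and nasal epithelium. The first base of Cyp2f2 lay 0.092 kb before a strong boundary (27120001 to 27125000, strength 0.665), whose bin covered an exon of that gene. Cyp2t4, 28.7 kb beyond, was the only member in the next interval of 160 kb, which it shared with 9 other coding genes such as Egln2, an oxygen sensor.

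On the low-coordinate side, 4 members (Cyp2b13, Cyp2b9, Cyp2a4 and Cyp2b23) and 5 other coding genes lay in an interval of 690 kb, longer than 92.9% of intervals. Cyp2a4, a steroid hydroxylase of liver and kidney, was 292 kb from the nearest boundary. The nearest boundary of all 5 members from Cyp2s1 to Cyp2a4 was the same weak one (26010001 to 26015000, strength 0.319). Cyp2b9 lay 158 kb from it. It parted Cyp2b13, at 46.5 kb, from Cyp2b10, the phenobarbital-inducible enzyme, at 112 kb. Cyp2s1, an epithelial enzyme, was 193 kb from it and shared its 405 kb interval with Cyp2b10 and 11 other coding genes, including Axl and Tgfb1. Both genes thus lay in an interval with unrelated genes, whereas the 6 genes from Cyp2b19 to Cyp2f2 had theirs to themselves.

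Cyp2a4 and Cyp2a5 were the closest pair of members by sequence and lay on opposite sides of the boundary of 1.97. Their coding sequences of 1485 bases were 98.5% identical. In the RefSeq promoter windows of 300 bases, 294 of 299 aligned bases were identical. The 100 bases before the RefSeq start are shown for both because these near-identical promoters lie in different intervals. Capitals mark the motif TATAAA, searched on both strands.
Cyp2a4, chr7:26307092-26307191, plus strand: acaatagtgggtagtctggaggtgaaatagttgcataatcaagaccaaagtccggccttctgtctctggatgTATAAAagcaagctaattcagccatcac
Cyp2a5, chr7:26835239-26835338, plus strand: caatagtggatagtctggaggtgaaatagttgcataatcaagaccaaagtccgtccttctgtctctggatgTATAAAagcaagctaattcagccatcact
Relative to the start the motif began at position -28 in Cyp2a4 and -29 in Cyp2a5.

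The Cyp2d cluster on chromosome 15 (82370527 to 82794294) had a boundary at each end, both just inside the outermost genes. It holds 8 genes and 9 pseudogenes in 424 kb. At the low-coordinate end the weak boundary of 0.337 (82375001 to 82380000) covered an exon of Cyp2d22, often taken as the mouse counterpart of the human drug-metabolising CYP2D6, and ended 0.260 kb from its start site. At the other end a boundary with a strength of 1.86 (82785001 to 82790000) lay outside coding genes, 0.101 kb from the gene body of Cyp2d26 and 4.29 kb from its start. It was stronger than 96.1% of all boundaries.

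The 405 kb between these boundaries held the start sites of 7 Cyp2d genes and of no other coding gene. Cyp2d26 alone fell on the far side of the strong boundary, in a 300 kb interval shared with Tcf20, Nfam1 and Serhl. The genes were spread from its edges to its middle. Cyp2d11 lay 14.0 kb, Cyp2d10 27.2 kb and Cyp2d9 53.4 kb from the weak boundary. Cyp2d9 lies 72.4 kb away by its RefSeq start, which is 18.9 kb from the GENCODE start. Cyp2d12 at 175 kb and Cyp2d34 at 164 kb were the farthest, and Cyp2d40 lay 20.8 kb from the strong boundary. The median of the 8 was the lowest of the 5 clusters, at 24.01 kb.

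The Cyp2j cluster on chromosome 4 (96027534 to 96664154) holds 8 genes, all on the minus strand. Members such as Cyp2j5 and Cyp2j6 are known for oxidising arachidonic and other fatty acids. A strong boundary of 0.823 (96040001 to 96045000) overlapped an exon of Cyp2j13, the member at the low-coordinate edge, and lay 32.5 kb from its start site. A weak boundary of 0.305 (96275001 to 96280000) parted Cyp2j13, Cyp2j12 and Cyp2j7 from Cyp2j11, Cyp2j8, Cyp2j6, Cyp2j9 and Cyp2j5. The high-coordinate edge had a weak boundary of 0.496 (96690001 to 96695000), just under the strong class, 25.8 kb from the start of Cyp2j5. The 2 intervals were 230 and 410 kb long and held no other coding gene.

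No start site of this cluster lay within 10 kb of a boundary. The nearest was that of Cyp2j5, and the farthest that of Cyp2j8, at 183 kb. Cyp2j7 lay 38.3 kb, Cyp2j11 68.7 kb, Cyp2j12 96.2 kb, Cyp2j9 98.4 kb and Cyp2j6 136 kb away. Counting strong boundaries alone, Cyp2j5 was 619 kb from one, the largest such distance of any member.

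The 6 single loci ranged from a start site inside a boundary bin to one 152 kb from any. Cyp2r1, which carries out the first hydroxylation of vitamin D in the liver, was the only member whose GENCODE start site fell in a boundary bin, a weak one (chromosome 7, 114560001 to 114565000, strength 0.283). Cyp2e1, which oxidises ethanol, lay 31.3 kb from a strong boundary (chromosome 7, 140795001 to 140800000, strength 2.05). It was stronger than 97.6% of the list and closed a 620 kb interval which Cyp2e1 shared with 20 other coding genes, most of them olfactory receptor genes.

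Cyp2u1, a fatty acid hydroxylase, lay 63.2 kb from a strong boundary of 0.678 on chromosome 3. Cyp2c23, an arachidonic acid epoxygenase of the kidney that stands apart from the Cyp2c cluster, lay 116 kb from one of 1.06. Cyp2ab1 on chromosome 16 was 135 kb from a weak boundary of 0.285, and Cyp2w1 on chromosome 5 was 152 kb from a strong one of 0.881. Each of the last 4 was the only member in its interval, among 2 to 11 other coding genes.

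**Figure D2:**
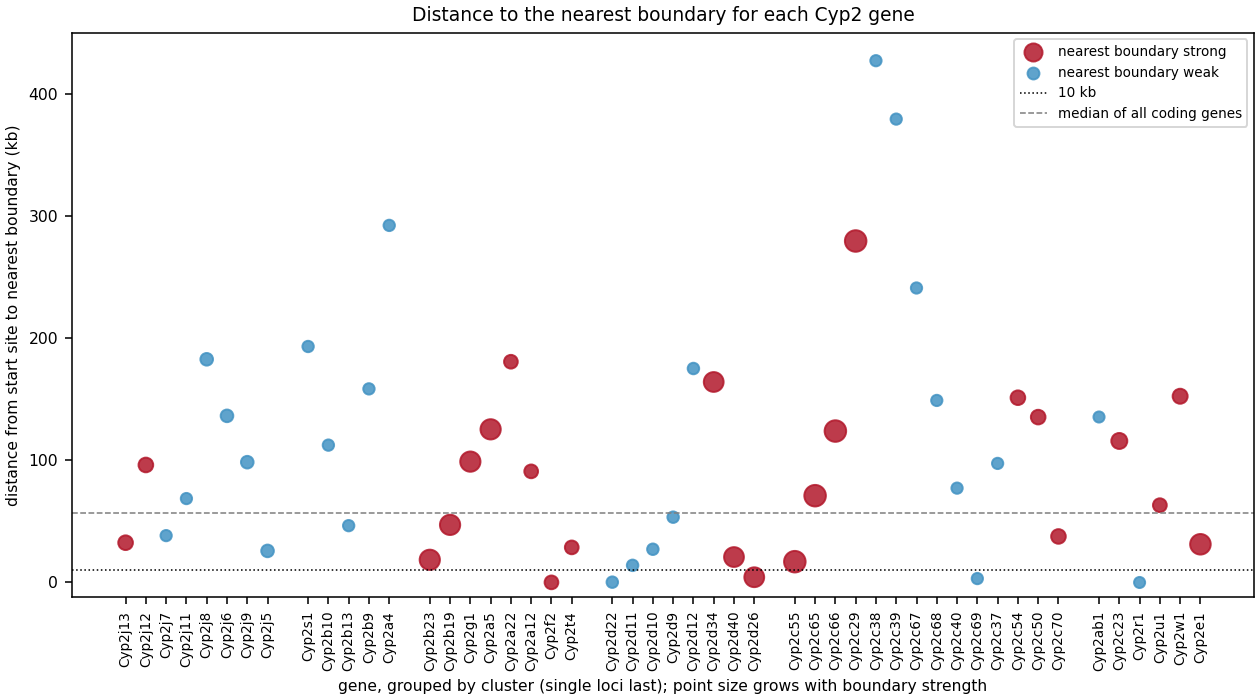
Distance in kb from each Cyp2 start site to the nearest boundary, by cluster and then for the 6 single loci. Red points have a strong and blue points a weak nearest boundary, and point size grows with strength. In the Cyp2c cluster distances rise from 17.0 kb at Cyp2c55 to 427 kb at Cyp2c38 and end at 37.7 kb at Cyp2c70.

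Across the family, start sites were no more often at boundaries than those of other genes. Their median distance was larger, but its 95% interval included the median of all genes. Of the 49 members 5 had a start site within 10 kb of a boundary (10.2%, exact 95% binomial interval 3.40 to 22.2%), against 14.3% of all protein-coding genes. The 5 were Cyp2r1, Cyp2f2, Cyp2d22, Cyp2c69 and Cyp2d26. For Cyp2f2 and Cyp2d22 another annotated coding transcript starts inside the bin. The next member outside that limit was Cyp2d11 at 14.0 kb. Strong boundaries accounted for 2 of the 5, Cyp2f2 and Cyp2d26. Thus 4.08% of the members were at a strong boundary, against 9.3% of all genes. A boundary bin overlapped the gene body of 4 members (8.16%), Cyp2r1, Cyp2f2, Cyp2d22 and Cyp2j13, each at an exon, against 16.2% of all genes.

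The median distance was 96.2 kb over the members (order-statistic 95% interval 47.1 to 125 kb) and 56.6 kb over all protein-coding genes. The interval thus included the median of all genes. More than 100 kb from any boundary lay 21 members (42.9%), 8 of them in the Cyp2c cluster, against 26.8% of all genes. The nearest boundary was strong for 24 members (49.0%), against 63.3% of all genes. These intervals treat genes as independent, which neighbours in a cluster are not, and no test of the difference was made.

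The 50 genes of other P450 families had a median of 58.0 kb, near that of all genes, and 10 of the 50 lay more than 100 kb from a boundary. Of these 50, 5 were within 10 kb of one, led by Cyp26b1 and Cyp4f13 with start sites inside the bin. Among 96 genes of other drug-metabolising families (glucuronosyl-, glutathione and sulfotransferases, carboxylesterases and others) the median was 74.2 kb, and 34 (35.4%) lay beyond 100 kb. Of the 96, 5 were within 10 kb of a boundary (5.21%). The nearest boundary was strong for 25 of the 50 other P450 genes and for 52 of the 96 (54.2%), against 63.3% of all genes. A strong boundary lay within 10 kb of 2 of the 50 and of 2 of the 96 (2.08%), against 9.3% of all genes. Low shares for strong boundaries were thus not limited to the Cyp2 genes. These differences were not tested.

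**Figure D3:**
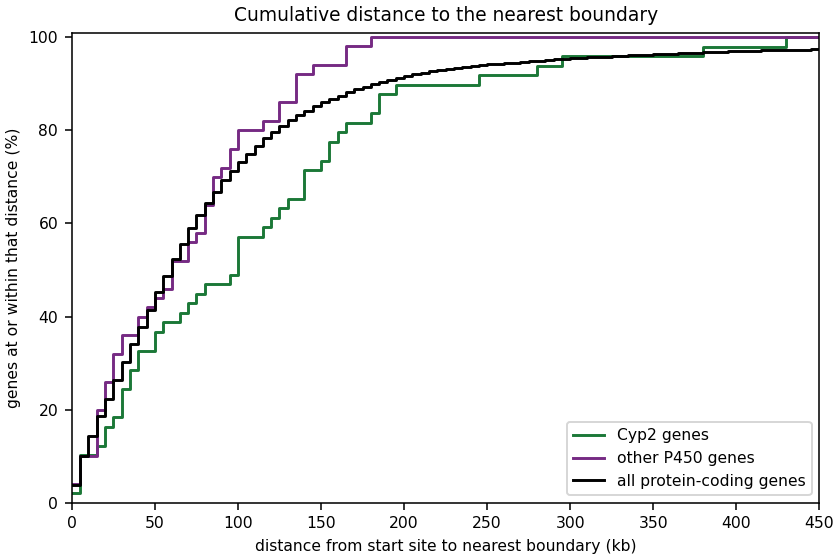
Cumulative share of genes, in percent, by distance in kb from start site to nearest boundary for the 49 Cyp2 genes (green), 50 other P450 genes (purple) and all protein-coding genes (black). The green curve runs below both others from 15 to 290 kb, with medians of 96.2, 58.0 and 56.6 kb.

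Genes that serve the P450 enzymes were also placed. Among 7 redox and haem supply genes, 1 lay within 10 kb of a boundary (14.3%, the same share as of all protein-coding genes). It was Pgrmc1, a haem-binding partner of P450 enzymes (8.21 kb, strength 0.249). Por itself was 50.03 kb from a strong boundary of 1.46. Among the 13 regulators, Ahr, the dioxin receptor, had its start in a weak bin (0.276). Cebpb, a liver transcription factor, lay 3.92 kb from a strong boundary of 1.30. Both were named for lying within 10 kb of a boundary, so they do not stand for the group. Hnf4a, at 16.8 kb from a weak boundary, and Cebpa, at 104 kb from a strong one, were farther away. The xenobiotic receptors of liver, Nr1i2 and Nr1i3, were 45.2 and 71.0 kb from strong boundaries of 0.681 and 0.615.

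The start sites of neighbours were set against the boundaries between them. Of 38 pairs of neighbouring members, 32 had no boundary between their start sites and 6 had one. No share for neighbouring genes over the genome was computed. The clusters had 13.6 coding starts and 2.46 boundaries per Mb. These densities come from the same genes and boundaries as the pairs, so they give no separate expectation for these counts. The 49 start sites fell into 15 intervals, apart from that of Cyp2r1 in its bin, and 8 intervals with more than 1 member held 41 of them. In 6 of the 15 there was no other coding gene. The intervals had a median length of 355 kb (160 to 900 kb), against 260 kb for all intervals, and 13 of 15 were longer than that median. An interval that holds many genes of a cluster is more likely to be long, so the lengths are given as a description.

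**Figure D4:**
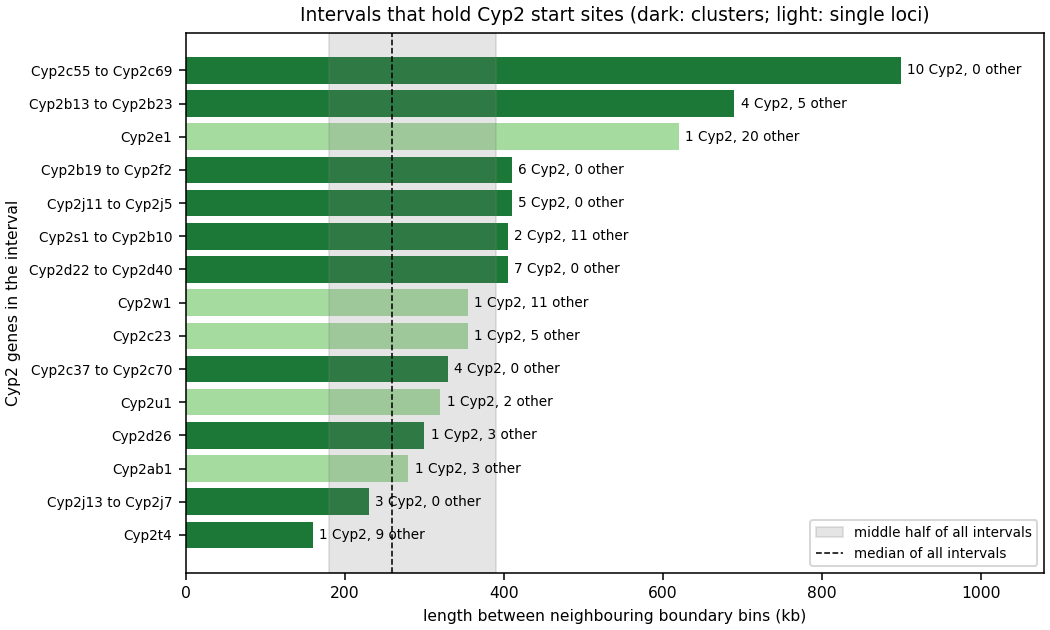
Length in kb of the 15 intervals between boundaries that hold Cyp2 start sites (dark green clusters, light green single loci), with the number of Cyp2 and other coding genes in each. The dashed line is the median of all 7590 intervals, 260 kb, and the shaded band spans 180 to 390 kb, their interquartile range. The Cyp2c55 to Cyp2c69 interval is the longest at 900 kb.

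Coding sequences were compared within and across boundaries. Identity was the share of the longer coding sequence that was identical in a pairwise alignment. It is therefore lowered in pairs of unlike length, such as those with Cyp2c40 (1563 bases) or Cyp2d40 (1017 bases, against a median of 1485). The rankings and counts below hold for this measure. Pairs in the same cluster and the same interval had a median of 76.8% (104 pairs). For pairs in the same cluster with a boundary between them it was 77.2% (81 pairs). For pairs from different loci it was 58.4% (991 pairs). The last group includes Cyp2b23 with Cyp2b13, Cyp2b9 and Cyp2a4, which share its interval but belong to the other chromosome 7 cluster. The medians inside and across a boundary of a cluster were close. Within clusters the highest identity was 97.7% in the same interval and 87.3% across a boundary. That contrast depends on the cluster gap of 200 kb. Cyp2a4 and Cyp2a5, 98.5% identical across the boundary of 1.97, count as different loci at this gap. Pairs share genes and are not independent. For 34 members the closest relative was at least 80% identical by this measure. It lay in the same interval for 25, across a boundary of the same cluster for 7, and in the other chromosome 7 cluster for Cyp2a4 and Cyp2a5.

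By share of the longer coding sequence, the most alike members of 1 interval were Cyp2c67 and Cyp2c69, which were 97.7% identical. Cyp2c68 was 97.2% identical to Cyp2c67. Cyp2c40 stood at 92.6% with Cyp2c68, a value lowered by its longer coding sequence (1563 bases, of which 1476 were aligned). Across the weak Cyp2j boundary Cyp2j7 was 87.3% identical to Cyp2j11. Across the weak boundary on chromosome 7 Cyp2b10 had Cyp2b13 as its closest relative, at 87.3%. Cyp2g1, Cyp2f2, Cyp2t4 and Cyp2s1 had no member above 66.2%.

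The clusters were rich in repeated sequence, which bears on where contacts can be placed. Of all stretches of 50 bases in the clusters, 74.4% occurred once in the genome, against 88.7% in 5266 bins taken at even steps along the genome. Values ran from 70.1% in the Cyp2c and 70.7% in the Cyp2s1 to Cyp2a4 cluster to 82.9% in the Cyp2j cluster. Soft-masked repeats covered 52.5% of the clusters and 34.3% of the genome, while GC content was 40.8% and 41.8%. Of 653 bins of 5 kb in the clusters, 113 (17.3%) had under 50% of such stretches unique. The share was 7.35% in the evenly spaced bins and 1.60% among all boundary bins. Whether repeated sequence changed the number of boundaries called in the clusters was not tested.

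**Figure D5:**
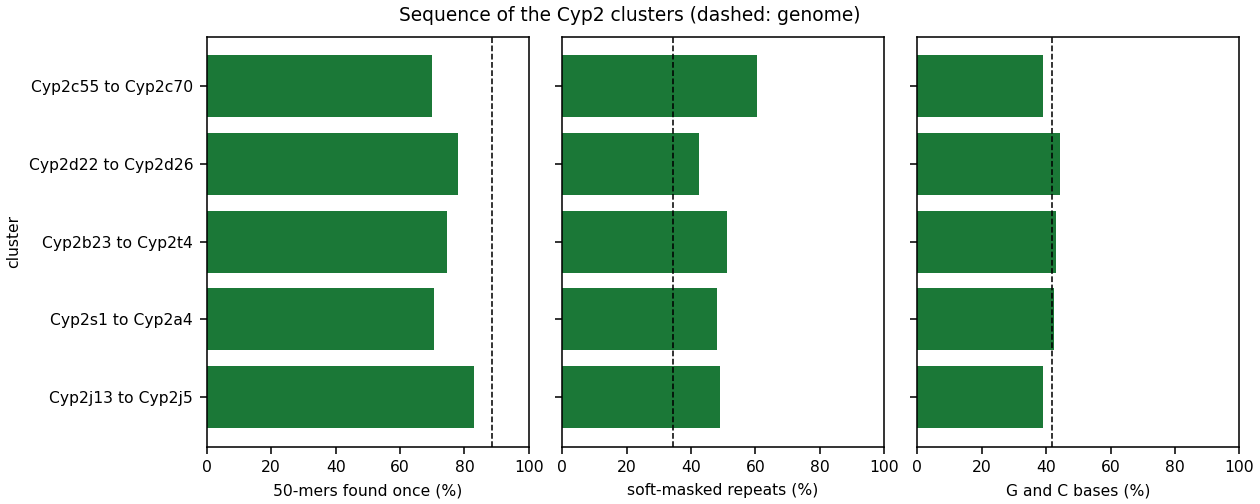
Sequence of the 5 Cyp2 clusters as percentages, with dashed lines for the genome: stretches of 50 bases found once (left), soft-masked repeats (middle) and G and C bases (right). All 5 clusters lie below the genome in unique sequence (88.7%) and above it in repeats (34.3%).

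The bins of the boundaries inside the clusters were mostly unique. The lowest was the weak boundary between Cyp2b10 and Cyp2b13, at 54.5%, followed by the strong one between Cyp2b23 and Cyp2b19, at 67.8%, and the weak one by Cyp2c69, at 78.5%. The other 5 inside the clusters lay between 93.1% and 99.1%. The CTCF consensus occurred 8 times in the clusters, or 2.46 per Mb against 4.83 per Mb in the genome, but the clusters differed. The Cyp2b23 to Cyp2t4 cluster held 4 of the 8, or 8.11 per Mb, the Cyp2c, Cyp2s1 to Cyp2a4 and Cyp2j clusters had 1.57 to 1.95 per Mb, and the Cyp2d cluster had none.

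Cyp2 promoters were poor in CG dinucleotides. In the RefSeq windows (GRCm38.p6, 250 bases before to 50 after the start), which were matched for 41 of 49 members, the median ratio of observed to expected CG was 0.152. Over 16433 protein-coding genes it was 0.604. A ratio of at least 0.6 was found in 1 of the 41, Cyp2r1, and in 50.4% of all. TATAAA on either strand occurred in 21 of the 41 (51.2%) and in 12.9% of all. On the forward strand and starting 40 to 20 bases before the start it occurred in 8 of the 41 (19.5%) and in 2.79% of all. Promoters of tandem copies share their descent, so the 41 are not independent.

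Among the 41 matched windows, Cyp2s1 came closest to the ratio of Cyp2r1 (0.571 against 0.710) but lay 193 kb from a boundary. The window of Cyp2r1 was the only one of the 41 that lay wholly in a boundary bin. The 250 bases before the start of Cyp2r1 are shown for that reason, with each CG in capitals (22 in the 300 base window).
Cyp2r1, chr7:114562973-114563222, minus strand: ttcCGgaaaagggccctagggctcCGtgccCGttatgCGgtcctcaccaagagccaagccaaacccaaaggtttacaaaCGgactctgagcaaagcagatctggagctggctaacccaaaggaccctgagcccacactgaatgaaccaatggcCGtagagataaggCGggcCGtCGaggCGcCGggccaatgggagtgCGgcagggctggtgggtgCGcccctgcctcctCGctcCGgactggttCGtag
The window of Cyp2f2, whose strong boundary begins beside its start, had no CG, and 4 of its bases lay in the bin. The windows of Cyp2c69 and Cyp2d26, also within 10 kb of a boundary, had ratios of 0.383 and 0.0674. Cyp2d22, the remaining member within 10 kb of a boundary, had no matched window.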

How the data were processed

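Per the labels' design text, the authors combined the in situ Hi-C contact pairs of both replicates into 1 matrix on GRCm38 and called boundaries on it. For the caller, its window and its mask, the sources used here give nothing. The deposited list gives a boundary strength, a score, for each of 7610 bins of 5 kb. The depth behind each bin is unknown, which limits how firmly the absence of a boundary can be read. Membership follows from gene symbols alone, but this family, the other gene lists and the alternatives were chosen with earlier results of these data known.

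From this list and GENCODE M21, distances were computed from each gene's 5′ end to the nearest edge of the nearest bin, which was 0 inside it. All statements are descriptions. Named genes were all single loci, cluster ends, genes at or crossed by a boundary, the farthest gene of each cluster and genes of known role. Genes outside the family were named for the nearest boundary or as partners within 10 kb of one. The result for 1 regulator is not reported here. Others named were chosen after their values were seen. Coding sequences, the longest per gene, came from GENCODE and GRCm38, because no protein sequences were used here. Pairs were aligned globally. Distances were tested on simulated data. Python 3.11.15, numpy 2.4.6, pandas 2.3.3, scipy 1.17.1, Biopython 1.88 and matplotlib 3.10.9 were used. Alternatives were the strong class alone, other windows, start sites, cluster gaps and motifs, and the 1-letter symbols.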

Additional observations from a re-analysis of the deposited data

How the results depend on the processing

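No paired analysis was possible because the neurons formed a single group. Leaving out a replicate was likewise not possible, since the contacts had been pooled. Of 26 alternatives 15 gave a count within 1.5 times the reported one or a median inside its 95% interval, and leaving out Cyp2ab1 was among these for each result it touched. With strong boundaries alone, 2 members were at a boundary (9.3% of all genes) and 2 gene bodies were crossed (10.3% of all genes). The median distance was then 192 kb (100.9 kb for all genes), and the clusters held 4 boundaries. Of the strong cluster boundaries, 3 of 7 had the CTCF consensus within 10 kb (32% of all strong ones). With the start site in the bin 1 member counted (3.86% of all genes), and with a window of 25 kb 9 did (26.5%). With gaps of at most 100 kb there were 6 clusters with 5 boundaries, or 1.85 per Mb. Within 25 kb, 4 of 10 edges had a boundary. The consensus lay in the bin at 1 of 12 cluster boundaries, and a relaxed form with any base at 5 of its 12 positions lay within 10 kb of all 12 and of 90.2% of all bins. Repeated sequence and unknown depth limit what the absence of a boundary shows.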
